A study of Mus musculus with 6 samples.

Results

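The 32 genes described here are Trp53, which encodes the transcription factor p53, its negative regulators Mdm2 and Mdm4, and 29 genes known as p53 targets or as stress response genes, leaving aside the CDK inhibitor and BCL2 families. They were taken by symbol from the 24015 genes of the count files. All 32 were listed there and all 32 were expressed enough to be tested, among 12729 genes tested in all. Their levels were measured by RNA sequencing in 6 libraries of sorted leukaemia stem and progenitor cells of mice with fully developed acute myeloid leukaemia. In every mouse the leukaemia was driven by the fusion oncogene MLL-AF9 and had been started from lineage-negative, cKit-positive marrow progenitors of NIKERT2 mice, which carry a Rosa-loxp-STOP-loxp-NIK transgene and the tamoxifen-dependent recombinase Rosa-CreERT2. The 3 untreated libraries (LSPC) thus carry the silent NIK transgene and the recombinase too, and the 3 tamoxifen libraries (LSPCT) differ from them by the drug, by active Cre and by the released transgene for the kinase NIK, which cannot be told apart here. No source used here gives the ages of the mice, the dose and timing of tamoxifen, the sort gates or whether each replicate was a separate mouse. The p-values therefore measure the spread between these libraries, which may be technical.

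p53 is held at low levels by Mdm2, a ubiquitin ligase whose gene p53 itself switches on, and by the related protein Mdm4. After DNA damage or other stress, kinases free p53 from this control, and it binds DNA sites made of a pair of decamers and raises genes of growth arrest, DNA repair, metabolism and cell death. Many of its targets also answer to other factors, among them ATF4 in amino acid and protein-folding stress, FOXO proteins and NF-kB, so a change in one target is not a reading of p53 activity. p53 targets are of interest in MLL-AF9 leukaemia because p53 commonly stays unmutated in leukaemias with MLL fusions.

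Promoter sequences are shown for the genes with the largest rise and the largest fall among those that passed the test, Trp53i11 and Sesn2, and for the genes that carry a decamer fitting the p53 consensus. RefSeq promoters (GRCm38.p6, not the mm9 build of the counts) were found by symbol for 26 of the 32 genes (all but Trp53inp1, Xpc, Perp, Zmat3, Ddb2 and Rrm2b), and the 250 bases before each start site were searched on both strands for 3 motifs. These were the p53 decamer, which reads the same on both strands, the NF-kB consensus and the C/EBP-ATF response element bound by ATF4 (TGATGNAA). Capitals mark the matches, and the sequences below are read in the direction of the gene.
Trp53i11, chr2:93187298-93187547, plus strand, the whole 250 bases: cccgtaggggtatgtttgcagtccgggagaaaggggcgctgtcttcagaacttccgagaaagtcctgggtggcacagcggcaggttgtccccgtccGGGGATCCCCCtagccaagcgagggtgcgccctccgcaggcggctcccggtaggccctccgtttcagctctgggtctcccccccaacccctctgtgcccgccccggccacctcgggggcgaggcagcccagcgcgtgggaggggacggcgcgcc
Sesn2, chr4:132510502-132510706, minus strand, the 205 bases that lie before any annotated exon: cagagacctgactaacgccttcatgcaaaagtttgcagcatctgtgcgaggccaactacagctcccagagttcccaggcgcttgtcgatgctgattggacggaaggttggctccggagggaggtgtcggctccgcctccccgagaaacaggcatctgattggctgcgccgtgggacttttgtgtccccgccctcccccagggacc
The 11 bases in capitals of Trp53i11 hold overlapping matches to the NF-kB consensus, the nearer of which ends 143 bases before the start site. NF-kB matches were found for 2 of the 26 genes (7.69%), Trp53i11 and Gtse1, and for 4.46% of all genes with a RefSeq promoter. No motif searched matched in the Sesn2 stretch, which says only that these letters are not in this window.

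Matches to the p53 decamer were found before 9 of the 26 genes (34.6%), against 8.20% of all 27025 genes with a promoter in the table. The 6 that lie outside annotated exons are shown with 15 bases on each side.
Trp53, chr11:69580269-69580308, plus strand: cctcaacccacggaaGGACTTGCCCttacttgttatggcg
Mdm2, chr10:117710920-117710959, minus strand: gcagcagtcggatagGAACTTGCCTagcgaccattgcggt
Ccng1, chr11:40755447-40755486, minus strand: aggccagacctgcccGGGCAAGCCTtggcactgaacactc
Sesn1, chr10:41887251-41887290, plus strand: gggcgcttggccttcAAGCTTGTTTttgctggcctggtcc
Polk, chr13:96519394-96519433, minus strand: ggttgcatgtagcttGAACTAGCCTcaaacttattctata
Ckap2, chr8:22185998-22186037, minus strand: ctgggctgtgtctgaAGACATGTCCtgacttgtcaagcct
The other 3, before Aen, Ei24 and Gadd45a, overlap annotated exons and are not printed. Polk, Sesn1 and Aen each have a further RefSeq window in which no p53 decamer was found. It lies upstream of the window with the match, for Polk at chr13:96542580-96542829, so the Polk match shown is before a downstream start site. A match is a run of letters and not a measured site. Of the 9 genes, 8 did not pass the test described below and Aen fell, and their log2 fold changes ran from -0.37 to 0.47. As 17.2% of all genes passed that test, few of any 9 genes would be expected to pass.

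Total counts were 19999071 to 26773176 per library, at which 3 counts correspond to 0.111 to 0.150 CPM, the count scaled to the library total. The targeted gene, Map3k14, which encodes NIK, stood at 24.2 to 28.8 CPM in the untreated libraries and at 129.8 to 190.5 CPM in the tamoxifen libraries. The first principal component, 62.7% of the variance over all genes, separated the groups, and the second, 17.2%, set tamoxifen replicate 1 apart (48.2, against -25.8 to 10.1 in the other 5 libraries). The progenitor markers Kit, Cd34, Hoxa9, Hoxa10, Meis1, Mef2c, Myb and Flt3 were present in every library, with a summed level of 1404 to 1922 CPM; of these 8, Mef2c and Flt3 fell (log2 -2.29 and -1.20) and none rose. Of the macrophage list, 7 of 8 tested members rose and its summed level was 160 to 180 CPM untreated, 633 and 676 CPM in tamoxifen replicates 2 and 3 and 1458 CPM in tamoxifen replicate 1. Most of that sum was Vcam1 and Emr1 in every library. Vcam1 was at 75.5 to 82.6 CPM untreated and at 929, 456 and 457 CPM in tamoxifen replicates 1 to 3. C1qa was at 0.339 to 3.63 CPM untreated and at 92.5, 8.03 and 14.3 CPM in tamoxifen replicates 1 to 3. Mature neutrophil markers, none of 8 passing, summed to 25.1 to 2041 CPM untreated, with the highest value in untreated replicate 3, and to 185 to 507 CPM with tamoxifen. T cell markers, none of 4 passing, summed to 5.62 to 8.68 CPM untreated and 24.9, 8.44 and 11.8 CPM with tamoxifen. Of B cell and erythroid markers, none of 2 and none of 1 passed, and Pax5, Hba-a1 and Hbb-b1 were at 0 throughout. Such a 0 need not mean absence, as the annotation and the treatment of reads with several positions are not given. The part of other cell types in the results below was not tested. In such bulk samples, fewer cells of a type and less RNA per cell cannot be told apart.

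With tamoxifen, 3 of the 32 genes rose and 2 fell (edgeR quasi-likelihood test, two-sided, Benjamini-Hochberg adjusted p under 0.05 over all genes tested). These 5 genes are 15.6% of the list, near the 17.2% of all genes that passed in either direction (8.96% rose and 8.24% fell). Trp53i11, Trp53inp1 and Xpc rose, and Sesn2 and Aen fell. The list did not move as a whole. Its median log2 fold change was 0.05, against -0.0025 over all genes tested, and 17 members were higher and 15 lower on average. Changes of at least 2-fold in either direction were seen for 5 members (15.6%), passing or not, against 12.3% of all genes. The 3 tamoxifen libraries did not overlap the 3 untreated ones for 14 members, 5 higher and 9 lower (43.8%), where this held for 37.7% of all genes (18.0% higher and 19.6% lower).

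**Figure D1:**
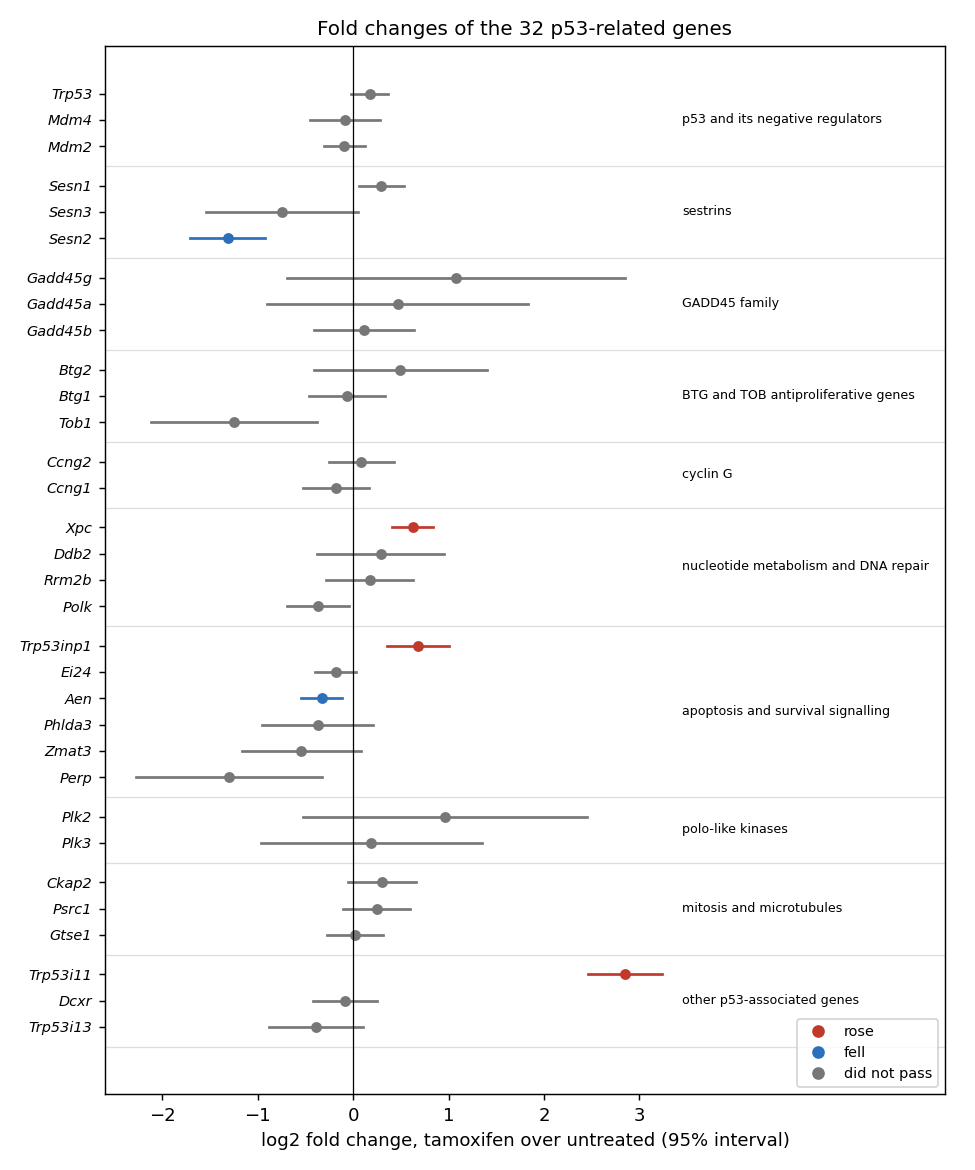
Fitted log2 fold changes of the 32 genes, tamoxifen over untreated, on the horizontal axis, with 95% intervals as bars, grouped by role; red genes rose, blue genes fell and grey genes did not pass the test. Trp53i11 at 2.84 stands far to the right of all others, and the intervals of the Gadd45 and Plk genes are wide.

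**Figure D2:**
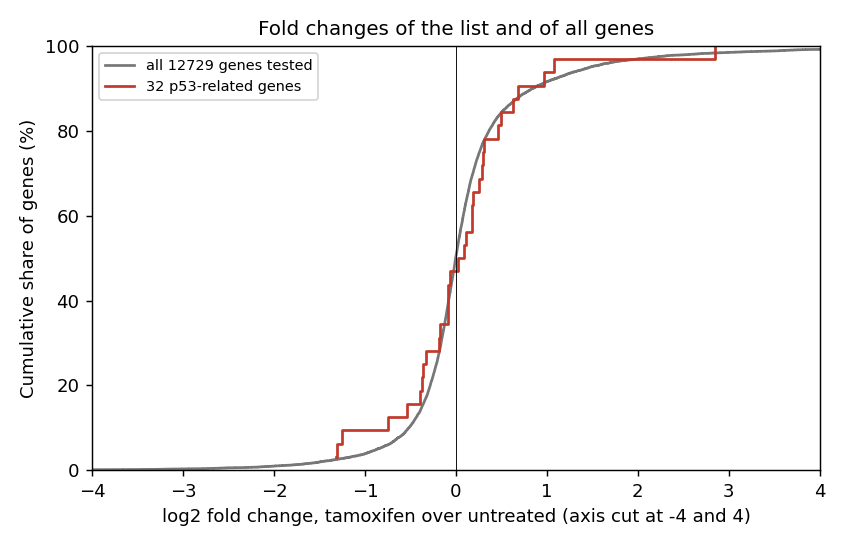
Cumulative share of genes in percent against the log2 fold change, tamoxifen over untreated, for the 32 genes (red) and all 12729 genes tested (grey); the axis ends at -4 and 4. The curves cross near 0, at medians of 0.05 and -0.0025.

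p53 and its inhibitors were close to level between the groups. Trp53 itself stood at 228, 217 and 204 CPM in untreated replicates 1 to 3 and at 234, 258 and 239 CPM in tamoxifen replicates 1 to 3. Every tamoxifen library was above every untreated one, by a small margin, and the log2 difference of 0.17 (standard error (SE) 0.08, 95% interval -0.02 to 0.37) did not pass (edgeR adjusted p = 0.201). Mdm2 was at 72.0, 79.6 and 83.2 CPM untreated and 69.1, 73.1 and 78.3 CPM with tamoxifen. The groups overlapped, and the interval of the log2 difference ran from -0.31 to 0.12 (edgeR adjusted p = 0.558). Mdm4 differed by -0.09 (interval -0.45 to 0.28), with its lowest value, 102 CPM, in tamoxifen replicate 1 and 133 to 157 CPM in the other 5 libraries. Per kilobase of annotated exon, Trp53 was the most abundant of the 32 transcripts in both groups (53.5 and 60.2 CPM per kb), ahead of Xpc (36.0 and 55.5) and the cyclin G1 gene Ccng1 (32.3 and 28.5). Exon lengths were those of GENCODE M21 on GRCm38, so these levels are approximate.

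Trp53i11, which encodes a p53-inducible protein first described as PIG11, had the largest fold change and the smallest p of the list. It stood at 9.04, 6.35 and 7.61 CPM in untreated replicates 1 to 3 and at 63.4, 54.6 and 47.0 CPM in tamoxifen replicates 1 to 3. The lowest tamoxifen library was above the highest untreated one by several fold, and the rise came to 7.18-fold (log2 2.84, SE 0.17, interval 2.46 to 3.23; edgeR adjusted p = 4.35e-05). By p-value it ranked at 37 of the 12729 genes tested. Per kilobase of exon it went from 2.08 to 14.9 CPM, which moved it from position 26 to position 9 among the 32 genes. The similarly named Trp53i13 lies on another chromosome and is a distinct gene. It was at 6.23 to 8.50 CPM untreated and 5.29 to 5.38 CPM with tamoxifen, lower in each tamoxifen library, and did not pass (log2 -0.39, edgeR adjusted p = 0.255); its exons overlap those of Abhd15 on the other strand. Dcxr, which encodes a carbonyl reductase, overlapped between the groups (21.9 to 29.0 and 21.0 to 26.7 CPM).

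**Figure D3:**
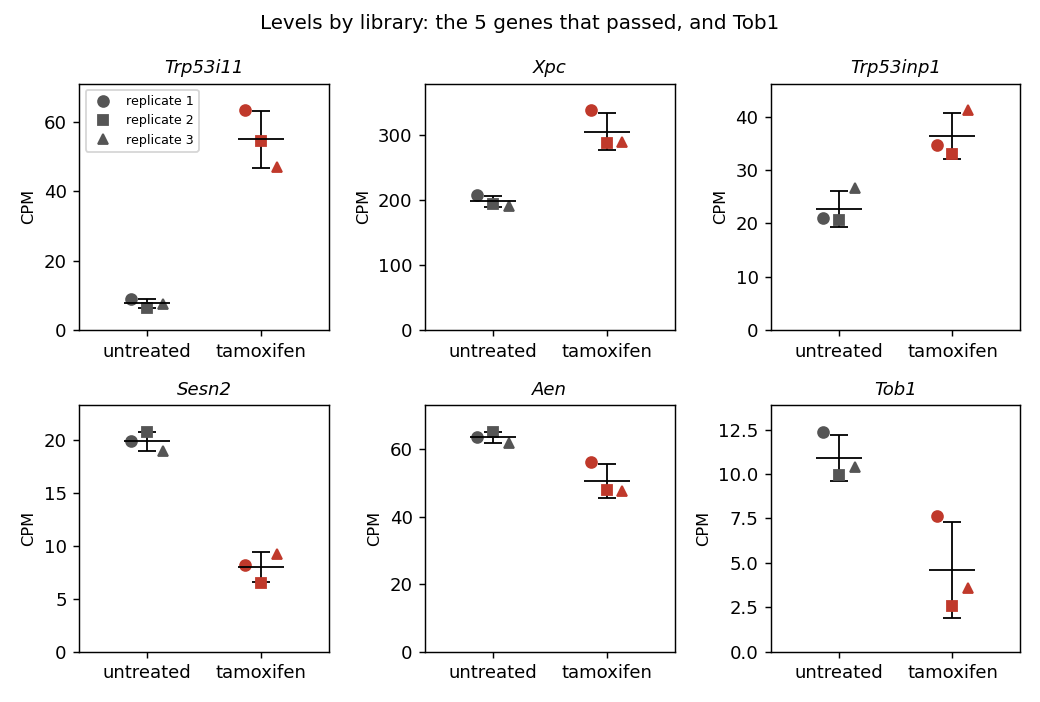
CPM on the vertical axis in each library for the 5 genes that passed and for Tob1, which did not; symbols mark replicates 1 to 3, long ticks the mean and bars the SD over 3 libraries. The groups are apart in all 6 panels, and the Tob1 value of tamoxifen replicate 1, 7.64 CPM, lies nearest to the untreated libraries.

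Among the DNA repair and nucleotide genes, Xpc alone passed. Its product recognises DNA distortions at the start of global nucleotide excision repair. Xpc stood at 208, 194 and 191 CPM untreated and at 338, 287 and 290 CPM with tamoxifen. The groups were well apart, and the rise was 1.54-fold (log2 0.63, SE 0.09, edgeR adjusted p = 0.00338). Ddb2, a damage sensor of the same repair pathway, was at 3.22 to 6.23 CPM untreated and 5.29 to 7.03 CPM with tamoxifen and did not pass (log2 0.29, interval -0.38 to 0.95, edgeR adjusted p = 0.549). Its exons overlap those of Acp2 on the other strand, and as the strand setting of the counting is not given, its counts may include reads of Acp2. Rrm2b, a ribonucleotide reductase subunit that supplies nucleotides for repair, did not pass (log2 0.17, edgeR adjusted p = 0.601). Polk, which encodes a DNA polymerase that copies past damaged bases, was at 24.99, 29.0 and 26.4 CPM untreated and 17.5, 20.6 and 24.1 CPM with tamoxifen, lower in every tamoxifen library. The difference, -0.37 on the log2 scale, missed the threshold (edgeR adjusted p = 0.116, from 0.0316 before adjustment).

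Genes of apoptosis and survival signalling included members that moved in opposite directions. Trp53inp1, whose product promotes p53 phosphorylation and autophagy, was at 21.0, 20.6 and 26.6 CPM untreated and 34.8, 33.1 and 41.3 CPM with tamoxifen. No tamoxifen library reached down to the untreated range, and the rise was 1.601-fold (log2 0.68, SE 0.14, edgeR adjusted p = 0.0140). It missed the threshold without untreated replicate 1 or 2 (edgeR adjusted p = 0.0681 and 0.0590). Aen, a nuclease gene of apoptosis, was at 63.6, 65.2 and 61.9 CPM untreated and 56.3, 47.9 and 47.5 CPM with tamoxifen. It fell by 0.33 on the log2 scale (SE 0.09) and passed by little (edgeR adjusted p = 0.0472). The call was lost under 10 of the 14 other settings tried, namely with RLE or upper quartile factors, no filter, the stricter filter and the replicate block (edgeR adjusted p 0.0533 to 0.0816) and without any 1 library other than tamoxifen replicate 1 (0.111 to 0.153). The other 4 genes of the group, Perp, Ei24, Phlda3 and Zmat3, were lower in each tamoxifen library than in any untreated one and did not pass. With Aen, 5 of the 6 genes were lower in this way, against 19.6% of all genes tested. The groups were chosen with earlier results of these data known, so this share is a description and not a test. Perp, an adhesion protein gene linked to cell death, was scarce, at 1.04, 1.99 and 1.15 CPM untreated and 0.649, 0.464 and 0.575 CPM with tamoxifen (log2 -1.30, interval -2.28 to -0.33, edgeR adjusted p = 0.0714). Zmat3, an RNA-binding protein gene, was at 9.24 to 11.2 CPM untreated and 4.49 to 8.67 CPM with tamoxifen (log2 -0.54, edgeR adjusted p = 0.213). Phlda3, an inhibitor of AKT signalling, and Ei24, an endoplasmic reticulum protein gene, differed by -0.37 and -0.18 on the log2 scale (edgeR adjusted p = 0.362 and 0.226).

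The 3 sestrin genes did not move together. Sestrins are stress-induced proteins that restrain the growth-promoting mTOR complex and oxidative damage, and Sesn2 is also a target of ATF4. Sesn2 stood at 19.9, 20.8 and 19.0 CPM untreated and at 8.19, 6.496 and 9.24 CPM with tamoxifen. The groups were far apart, and the gene fell by 1.32 on the log2 scale (SE 0.17, interval -1.71 to -0.92; edgeR adjusted p = 0.00176), which is 2.49-fold. Sesn1 was at 34.6, 35.0 and 31.0 CPM untreated and 40.9, 37.5 and 45.0 CPM with tamoxifen, higher in every tamoxifen library, and differed by 0.29 on the log2 scale, short of the threshold (edgeR adjusted p = 0.0875, from 0.0203 before adjustment). Sesn3 was near the low end of the list (1.78 to 3.05 and 1.21 to 1.80 CPM) and overlapped between groups (log2 -0.74, edgeR adjusted p = 0.183). Per kilobase of exon, Sesn1 was the most abundant of the family in both groups (8.43 and 10.3 CPM per kb), followed by Sesn2 (5.72 and 2.29) and Sesn3 (0.162 and 0.0965).

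BTG and TOB proteins slow proliferation and recruit the machinery that shortens mRNA tails. Tob1 was at 12.4, 9.96 and 10.4 CPM untreated and 7.64, 2.55 and 3.58 CPM with tamoxifen. All tamoxifen libraries were lower, replicate 1 the least so, and the log2 difference of -1.25 (SE 0.38) missed the threshold (edgeR adjusted p = 0.0581). It passed without tamoxifen replicate 1 (log2 -1.82, edgeR adjusted p = 0.00104), and also with DESeq2 (adjusted p = 0.00359), limma voom (0.0219), the replicate block (0.0263) and no filter (0.0378). Btg1 did not pass (77.3 to 102 and 66.2 to 101 CPM, log2 -0.07, edgeR adjusted p = 0.828). Btg2 was at 27.6, 29.3 and 34.5 CPM untreated and at 76.8, 27.2 and 24.9 CPM with tamoxifen, where replicate 1 was above every untreated library and replicates 2 and 3 were just under the lowest one.

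Tamoxifen replicate 1 was the highest of the 6 libraries for 8 of the 32 members (25%), against 22.3% of all genes. It was the lowest for 10 members (31.2%), against 23.6% of all genes. The GADD45 and polo-like kinase genes were among those that were highest there. The GADD45 proteins bind stress kinases and cell cycle proteins. Gadd45a stood at 7.75, 9.28 and 6.57 CPM untreated and at 23.3, 4.50 and 4.86 CPM in tamoxifen replicates 1 to 3. Tamoxifen replicate 1 was above, and replicates 2 and 3 below, every untreated library. The log2 difference was 0.47 over all libraries (edgeR adjusted p = 0.642) and -0.74 without tamoxifen replicate 1 (edgeR adjusted p = 0.0457). Its exons overlap those of E230016M11Rik on the other strand, so its counts may hold reads of that gene. Gadd45g was at 2.93, 3.35 and 4.42 CPM untreated and 18.0, 1.72 and 2.96 CPM with tamoxifen, again high in replicate 1 alone (log2 1.08 over all libraries and -0.60 without that one, edgeR adjusted p = 0.385 and 0.238). Gadd45b, also known as an NF-kB target, was at 28.3 to 39.6 CPM untreated and 52.6, 34.0 and 28.6 CPM with tamoxifen (log2 0.11, edgeR adjusted p = 0.775).

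The polo-like kinase genes Plk2 and Plk3, which act in stress and cell cycle checkpoints, were scarce and highest in tamoxifen replicate 1 too. Plk3 was at 8.94, 4.24 and 10.6 CPM untreated and 16.2, 6.40 and 4.56 CPM with tamoxifen (log2 0.19, edgeR adjusted p = 0.832), and its exons overlap those of Tctex1d4 on the other strand. Plk2 was at 0.547 to 1.40 CPM untreated and 3.50, 0.557 and 2.34 CPM with tamoxifen (log2 0.96, edgeR adjusted p = 0.353). In all, leaving out tamoxifen replicate 1 lowered the log2 fold change of 6 members (18.8%) by more than 0.5 and moved the other 26 by less. These 6 were Gadd45g, Gadd45a, Plk3, Btg2, Tob1 and Plk2. Over all genes tested, 4.64% were lowered by more than 0.5 in the same way. Outside the list, and chosen after their values were seen, the stress genes Ppp1r15a (116 CPM in tamoxifen replicate 1, 7.56 and 9.73 CPM in replicates 2 and 3, 13.3 to 30.5 CPM untreated) and Ddit4 (81.3, 18.3 and 16.1 CPM, 16.0 to 39.1 CPM untreated) were likewise highest in tamoxifen replicate 1. Ppp1r15a and Ddit4 belong to the list of ATF4 and the integrated stress response read below. Most tested genes of that list were not highest there, and Cebpg and Psat1 were lowest there. Over all genes, 22.3% were highest in tamoxifen replicate 1. The summed macrophage and T cell markers were also highest in that library. Their part in these values was not tested.

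**Figure D4:**
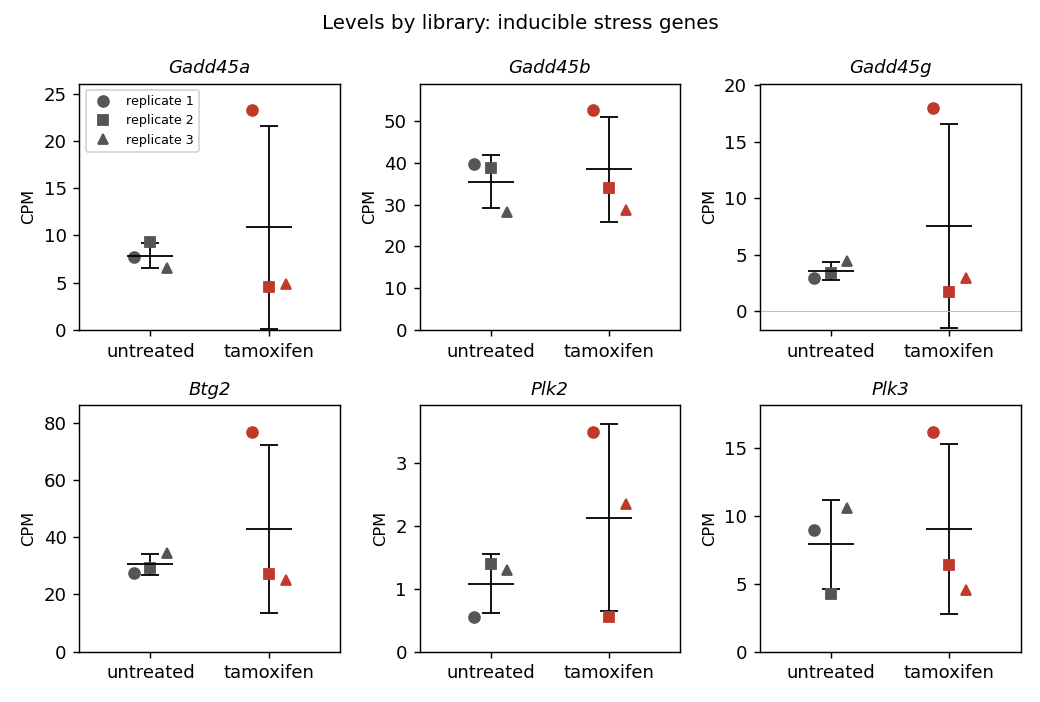
CPM on the vertical axis in each library for Gadd45a, Gadd45b, Gadd45g, Btg2, Plk2 and Plk3; symbols mark replicates 1 to 3, long ticks the mean and bars the SD over 3 libraries. Tamoxifen replicate 1 (circle) is the highest library in every panel, for example 23.3 CPM for Gadd45a against 4.50 and 4.86 CPM in the other tamoxifen libraries. The genes shown are among the 8 members highest in that library, so this holds in every panel through their choice. Over the list the share was 25%, against 22.3% of all genes.

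**Figure D5:**
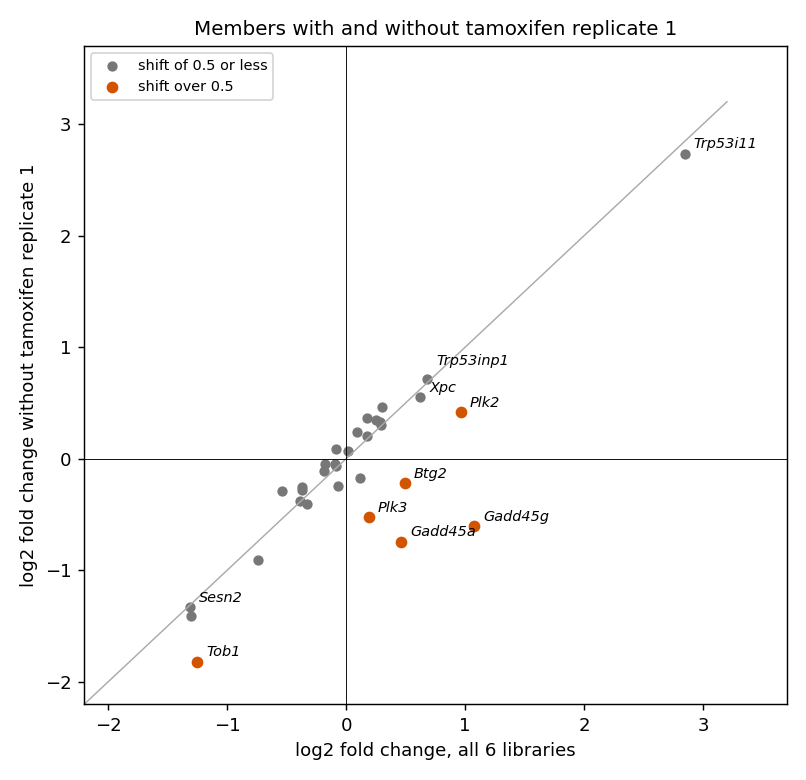
Log2 fold change of each of the 32 genes over all 6 libraries (horizontal) and without tamoxifen replicate 1 (vertical); the diagonal marks equal values, and orange points moved by more than 0.5. The Gadd45a, Gadd45g, Btg2 and Plk3 points lie to the right of 0 and below 0, while Trp53i11, Sesn2, Xpc and Trp53inp1 lie near the diagonal.

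Without tamoxifen replicate 1, 8 members passed, 4 higher and 4 lower (of 32, where 25.1% of all genes passed). Trp53i11, Xpc, Trp53inp1, Sesn2 and Aen kept their calls and directions. Ckap2 joined the genes that rose, and Tob1 and Gadd45a those that fell. Ckap2, a spindle-associated protein gene, was at 29.5 to 35.0 CPM untreated and 31.5, 47.2 and 43.2 CPM with tamoxifen. Its log2 difference was 0.30 over all libraries (edgeR adjusted p = 0.223) and 0.46 without that replicate (0.0154). The median of the list without that replicate was -0.09. The other mitotic and microtubule genes, Gtse1 and Psrc1, did not pass in either fit. Gtse1, which shuttles p53 out of the nucleus, was at 44.0 to 47.4 CPM untreated and 39.4 to 55.2 CPM with tamoxifen (log2 0.02, interval -0.28 to 0.31, edgeR adjusted p = 0.941). The cyclin G genes overlapped between the groups, Ccng1 at 105 to 125 and 82.0 to 122 CPM and Ccng2 at 32.5 to 39.5 and 30.01 to 42.6 CPM. Neither passed (edgeR adjusted p = 0.465 and 0.735).

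Further genes of the pathway were read from 4 lists. Over all genes tested, 8.96% rose and 8.24% fell, and the counts of these 4 lists are to be read beside those shares. Of 29 tested genes of p53 activation and DNA damage signalling, such as the damage kinases Atm, Atr, Chek1 and Chek2, 1 rose and 1 fell, with a median log2 fold change of -0.03. Trp53bp1, which marks broken DNA ends, went from 60.4 ± 2.21 to 78.8 ± 6.43 CPM (SD, n = 3; log2 0.38, edgeR adjusted p = 0.0249). Ppm1d, a phosphatase gene that p53 induces and that shuts off damage signalling, went from 41.0 ± 3.05 to 27.5 ± 4.06 CPM (SD, n = 3; log2 -0.57, edgeR adjusted p = 0.0172). Both missed the threshold when 1 library was left out, Trp53bp1 without any untreated replicate or without tamoxifen replicate 2 (edgeR adjusted p 0.0708 to 0.0880) and Ppm1d without untreated replicate 1 or 2 or tamoxifen replicate 3 (0.0624 to 0.0816).

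Among 10 tested p53 targets of the CDK inhibitor, BCL2 and death receptor families, 2 rose and 2 fell, with a median log2 fold change of -0.09. The direct p53 target Cdkn1a was at 58.4, 54.2 and 70.3 CPM untreated and 29.4, 18.7 and 16.4 CPM with tamoxifen, and Bid also fell, whereas Fas and the caspase gene Casp6 rose. Casp6 passed by little (log2 0.75, edgeR adjusted p = 0.0490). It missed the threshold with limma voom and the replicate block (adjusted p = 0.0556 and 0.0561) and without any 1 library other than tamoxifen replicate 2 (edgeR adjusted p 0.0649 to 0.149). Bax (log2 0.05, edgeR adjusted p = 0.816) and Bbc3 (-0.38, 0.224), which encode death effectors, did not pass. Of 19 further targets tested, 1 rose and 5 fell (median log2 -0.17). The genes that fell were Ppm1d again, the receptor gene Notch1 (log2 -0.41), the thiamine transporter gene Slc19a2 (-0.82), the survival factor gene Triap1 (-0.37) and the adenylate kinase gene Ak1 (-3.21). Ak1 was at 1.69 to 2.63 CPM untreated and 0 to 0.371 CPM with tamoxifen, at the limit of this depth. The Triap1 call was marginal (edgeR adjusted p = 0.0477). It was lost in 13 of 14 other settings (adjusted p 0.0502 to 0.164), limma voom being the exception (0.0496). Notch1, Slc19a2 and Ak1 each missed it without untreated replicates 1 or 2, and also, for Notch1, without tamoxifen replicate 2 or 3, for Slc19a2 without untreated replicate 3 or tamoxifen replicate 2, and for Ak1 without untreated replicate 3 or tamoxifen replicate 3 (edgeR adjusted p 0.0527 to 0.118). Cd80, a costimulatory ligand gene, rose (0.248 to 1.78 CPM untreated and 16.1 to 16.9 CPM with tamoxifen). Over the 61 tested genes of the 32 and both target lists together, 6 rose and 9 fell (24.6%, against 17.2% of all genes), with a median log2 fold change of -0.07. The lists were chosen with earlier results of these data known, so this share is a description and not a test. Without tamoxifen replicate 1, where 12.8% of all genes rose and 12.3% fell, the signalling list gave 2 that rose and 2 that fell, the family list 1 and 4, and the list of further targets 1 and 4.

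In the list of ATF4 and the integrated stress response, of which Sesn2 is a member, 1 of 20 tested genes rose, the serine synthesis gene Phgdh (log2 2.95), and 1 fell, Sesn2. Without tamoxifen replicate 1 the same list gave 1 that rose and 5 that fell, in a fit that called 12.8% of all genes higher and 12.3% lower. Atf4 itself stood at 290, 261 and 278 CPM untreated and 281, 197 and 207 CPM with tamoxifen, low in replicates 2 and 3 and within the untreated range in replicate 1 (log2 -0.27, edgeR adjusted p = 0.213). Its target Ddit3 was at 8.94 to 9.59 CPM untreated and 10.04, 4.50 and 5.84 CPM with tamoxifen (edgeR adjusted p = 0.333). Sesn2 was lower in all 3 tamoxifen libraries than in any untreated one, and so was Slc7a5 of the same list. Slc7a5 was at 123 to 144 CPM untreated and 108 to 114 CPM with tamoxifen and did not pass (log2 -0.30, edgeR adjusted p = 0.0608). Of the 20 tested genes, 1 was higher in every tamoxifen library, these 2 were lower and 17 overlapped. Over all genes, 18.0% were higher and 19.6% lower in this way.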

How the data were processed

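The authors deposited 1 file per library with whole-number counts per gene symbol, not normalized. The submitters' processing notes name the mouse build mm9 and the tools FastQC, TopHat2 2.1.0, featureCounts and DESeq2, with no role for each. No source used here gives the annotation, the strand setting or the treatment of reads with several positions. If strand was ignored, overlapping genes share counts.

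From the counts, genes were kept by filterByExpr (minimum count 10), scaled with TMM and compared with edgeR 4.0.16 in R 4.3.3 (glmQLFit, glmQLFTest, group as the only term, two-sided, Benjamini-Hochberg over 12729 genes, threshold 0.05). Standard errors were derived from the log2 fold change and F (its size divided by the root of F). CPM are TMM-scaled. Alternatives were RLE, upper quartile and no factors, no filter, a stricter filter (3 or more libraries above 1 CPM), limma voom (limma 3.58.1), DESeq2 1.42.0, the replicate number as a block and leaving out each library. Scripts were tested on simulated counts. All 32 members were accounted for; of the context lists, up to 6 passing genes with the smallest p were named, and all others named were chosen after their values were seen. The members and lists were chosen with earlier results of these data known.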

Additional observations from a re-analysis of the deposited data

How the results depend on the processing

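Over the 14 alternatives, Trp53i11 (log2 2.72 to 2.98), Xpc (0.55 to 0.67) and Sesn2 (-1.43 to -1.19) kept their direction and passed in each. The number of members called was 5 and ran from 3 to 8 over the fits that left out 1 library, with 2 to 4 that rose and 1 to 4 that fell; over all genes tested, 2189 were called, and 1029 to 3249 without 1 library. Only 1 member fell with RLE factors, upper quartile factors or the stricter filter, where Aen missed the threshold. Gadd45a ran from -0.74 to 0.83 on the log2 scale when 1 library was left out and changed sign without tamoxifen replicate 1 (edgeR adjusted p = 0.0457). The cause of these shifts was not tested. No label says that the replicate numbers mark pairs, so they were not taken as pairs. Deviations from the group means correlated at 0.118, -0.115 and 0.106 for same-numbered libraries 1 to 3, and at -0.168 to 0.140 for the others. Tamoxifen replicates 1 and 3 correlated best with the untreated library of their own number, and tamoxifen replicate 2 with untreated replicate 3 (0.140). Correlations this small over 3 libraries per group cannot settle whether the numbers mark pairs. With the replicate block 1792 genes and 5 members passed, of which Tob1 was gained and Aen lost. Genes near 1 CPM, such as Perp, Plk2 and Sesn3, rest on few counts, and their intervals are wide.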
